A study of Mus musculus with 18 samples.

Results

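The 7 genes described here are the core of the Hedgehog pathway in mouse lung: the ligand Shh, the receptor Ptch1, the signal transducer Smo, the transcription factors Gli1, Gli2 and Gli3, and the ligand-binding inhibitor Hhip. They were chosen by gene symbol. Each had 1 probe set with a single gene symbol, so that 7 of the 35556 probe sets on the array, or of the 21789 with 1 symbol, were taken, and all 7 passed the filter on low values. mRNA of whole lung was measured on 18 arrays in 6 groups of 3 biological replicates. Lungs of the Scap line, deleted or control, came from E18.5 or PN1, the day of birth. Those of the Insig line, Insig1/2Δ/Δ or control, came from E17.5 alone.

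In ScapΔ/Δ mice the floxed Scap gene is removed by Cre, which a doxycycline-dependent activator (rtTA) under the SP-C promoter switches on in the respiratory epithelium. Dams received doxycycline during gestation, and controls were littermates that lacked rtTA or Cre, on a mixed background. In Insig1/2Δ/Δ mice Insig1 is removed in the same way in animals that lack Insig2 in every cell, and their controls lack Insig2 as well. SCAP escorts the SREBP transcription factors toward activation, and the INSIG proteins hold SCAP back. Deletion was incomplete, and the RNA came from whole lung, in which fewer cells of a type and less RNA per cell cannot be told apart. The 2 lines also differ in stage and background. Line and stage cannot be told apart, so that the lines are set side by side and never tested against each other.

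In developing lung SHH is made by the epithelium and received by the surrounding mesenchyme. Without ligand, PTCH1 keeps SMO silent. Binding of SHH to PTCH1 releases SMO, which acts at the primary cilium and lets GLI2 and GLI3 activate transcription instead of repressing it. Gli1, Ptch1 and Hhip are induced by the pathway, and their transcripts are commonly read as a record of its activity, while PTCH1 and HHIP also bind the ligand and limit its spread. SHH carries a cholesterol group, and sterols bind SMO.

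Sequence before a transcript start of 5 of the 7 genes (Ptch1, Smo, Gli2, Gli3 and Hhip) was matched in the RefSeq promoter set of GRCm38.p6. The windows of Ptch1 and Gli2 lay inside their genes, past the outermost start, and are counted below with the others. The windows of Hhip, the gene of the 7 with the lowest fold across birth, and of Gli3, the gene of the 7 that followed Ptch1 most closely, are printed here. The Hhip window is chr8:80058061-80058258 on the minus strand, cut to 198 bases so that it ends before the outermost start of the gene, and the Gli3 window is chr13:15463473-15463722 on the plus strand, 250 bases ending just before the gene. Capitals mark GC boxes (GGGCGG on either strand), a motif of many promoters without a TATA box. In Hhip they lay on the minus strand relative to the gene, at -179 and -124, and in Gli3 on the plus strand, at -176 and -92, counted from the transcript start of the promoter set.
Hhip: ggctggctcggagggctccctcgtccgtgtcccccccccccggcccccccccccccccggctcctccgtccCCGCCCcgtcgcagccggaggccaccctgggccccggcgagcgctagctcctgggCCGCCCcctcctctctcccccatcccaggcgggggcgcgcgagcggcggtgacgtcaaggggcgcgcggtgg
Gli3: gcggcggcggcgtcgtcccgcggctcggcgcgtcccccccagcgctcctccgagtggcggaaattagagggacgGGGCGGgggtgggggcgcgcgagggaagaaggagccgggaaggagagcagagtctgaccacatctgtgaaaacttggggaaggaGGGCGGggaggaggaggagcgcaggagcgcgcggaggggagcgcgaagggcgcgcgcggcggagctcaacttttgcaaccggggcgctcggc
A GC box was present in 4 of the 5 windows of 250 bases and in 32.7% of all 32851 windows of that length. The GLI motif GACCACCCA, searched on both strands, was in none of the 5 and in 0.225% of all windows. The sterol regulatory motif TCACNCCAC, searched in the same way, was in none of the 5 and in 1.05% of all. The 250 bases were richer in G and C than the median window, which held 52.4%: Hhip held 76.0%, Gli3 72.8%, Ptch1 78.4%, Smo 68.4% and Gli2 67.2%. CG dinucleotides numbered 28 in Hhip, 34 in Gli3 and 41 in Ptch1, against a median of 6. The arrays did not measure binding at these sequences.

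The genes of the deletions served as a check of the labels. Scap was lower in ScapΔ/Δ than in control lungs by 0.41 (log2) at E18.5 and by 0.29 on the day of birth, and Insig1 was lower in Insig1/2Δ/Δ lungs by 1.22, with no overlap of groups in any of the 3 (exact permutation p = 0.1 each, the smallest that 3 against 3 allows). None of these differences passed limma after adjustment (adjusted p = 0.511, 0.0914 and 0.758). Epithelial markers were high in every group, with means over 8 markers between 11.76 and 12.14. The ScapΔ/Δ PN1 arrays KO17 and KO18 stood apart: across probe sets they correlated with each other at 0.9944 and with the other 16 arrays at 0.9312 to 0.9599, while those 16 correlated with one another at 0.9729 to 0.9975. KO16, the third array of that group, lay with the other 16. Heart muscle markers averaged 11.81 in the Insig control C21 and 9.46 to 10.40 in the other arrays. Results that rest on the PN1 ScapΔ/Δ group are therefore given with and without KO17 and KO18. With both left out that group is KO16 alone (n = 1), which limma takes to vary like the other groups, so that a value or p without them has no replicate check and says nothing of how stable a result is.

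Values below are log2 expression, so that a difference of 1 is a change of 2-fold. The probe sets of different genes are not on a common scale, and levels are compared only within a gene. A gene is said to rise or fall when limma gave an adjusted p under 0.05 over all probe sets, and any other difference is given as a value. Errors of group means are SD over 3 arrays, and errors of differences are SE from the fit.

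**Figure D1:**
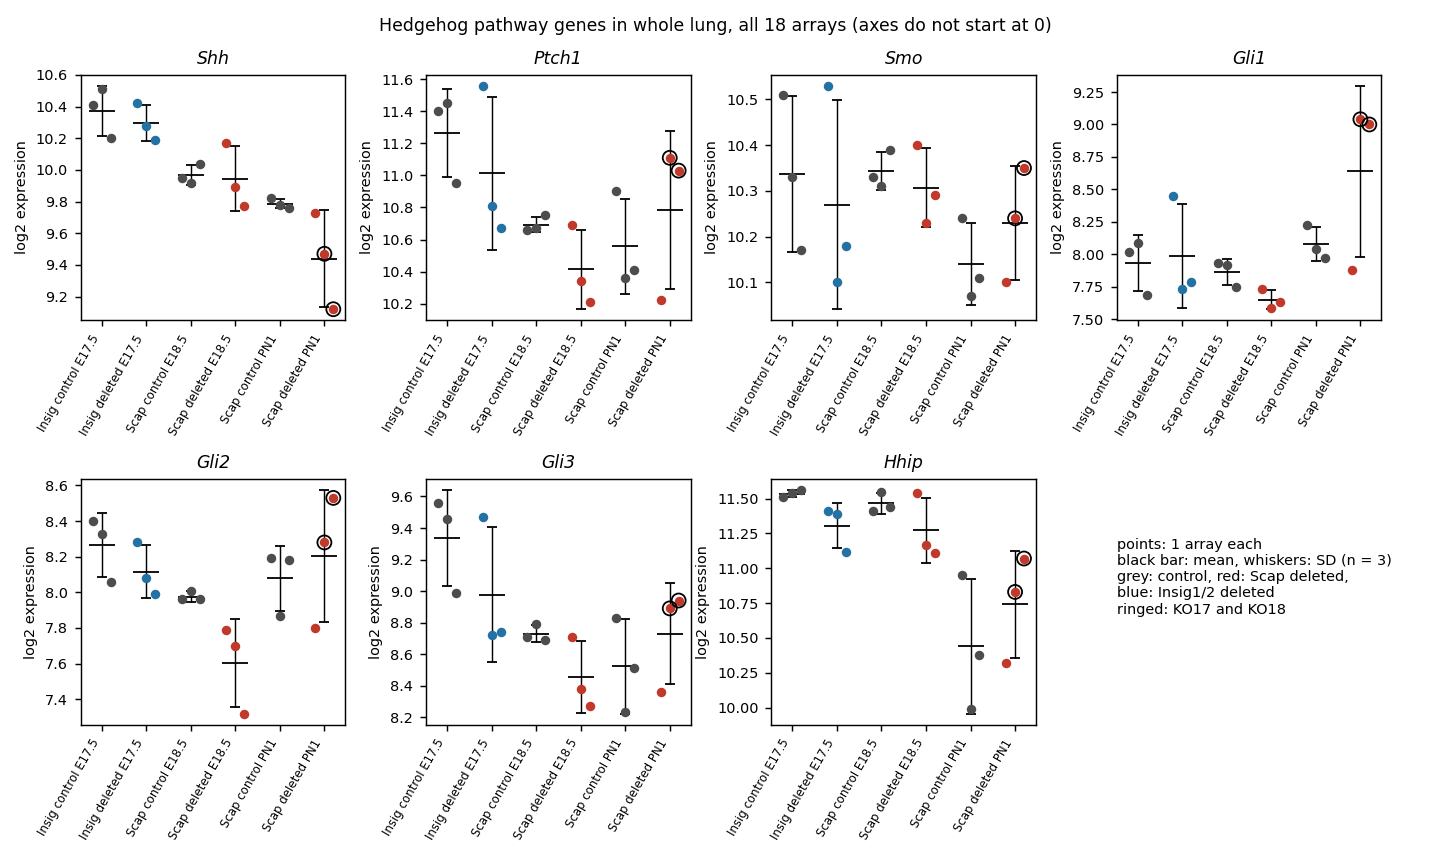
Log2 expression of the 7 Hedgehog pathway genes in each of the 18 arrays, 1 panel a gene, with groups on the horizontal axis, bars for means and whiskers for SD (n = 3). Shh is lowest and Gli1 highest in the ringed arrays KO17 and KO18, and Hhip is lower in the PN1 groups than in the earlier ones; the vertical axes do not start at 0.

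Shh, the ligand, was highest in the Insig line at E17.5 and lowest in ScapΔ/Δ lungs at PN1. Its values were 10.41, 10.51 and 10.20 in Insig controls and 10.42, 10.28 and 10.19 in Insig1/2Δ/Δ lungs. At E18.5 they were 9.95, 9.92 and 10.04 in Scap controls and 10.17, 9.89 and 9.77 in ScapΔ/Δ lungs. At PN1 they were 9.82, 9.78 and 9.76 in controls and 9.73, 9.47 and 9.12 in ScapΔ/Δ lungs. Every PN1 control lay below every E18.5 control, and every PN1 ScapΔ/Δ lung below every PN1 control. In the order of group means (10.37, 10.30, 9.97, 9.95, 9.78 and 9.44) the gap after the Insig groups and the gap before the last group were larger than the SDs of the groups beside them, while the other neighbours overlapped.

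At PN1 Shh was 0.35 ± 0.15 lower in ScapΔ/Δ than in control lungs, which did not pass the test (limma adjusted p = 0.137; exact permutation p = 0.1). With KO16 alone this difference was -0.05. Shh fell from E18.5 to PN1 in ScapΔ/Δ lungs, by 0.51 ± 0.15 on the log2 scale (limma adjusted p = 0.0266), or to 0.703 of its level. This change was -0.22 without KO17 and KO18 (adjusted p = 0.382). In control lungs the difference over the same interval was -0.19 ± 0.15 (adjusted p = 0.749). KO16 had a mean of the 8 epithelial markers of 12.02, KO17 of 11.77 and KO18 of 11.76, beside 12.01 to 12.14 in the PN1 controls; its part in the Shh values was not tested.

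Ptch1, the receptor and a pathway target, varied as much within groups as between them. Its values were 11.40, 11.45 and 10.95 in Insig controls and 11.56, 10.81 and 10.67 in Insig1/2Δ/Δ lungs. They were 10.66, 10.67 and 10.75 in E18.5 controls and 10.69, 10.34 and 10.21 in E18.5 ScapΔ/Δ lungs. At PN1 they were 10.90, 10.36 and 10.41 in controls and 10.22, 11.11 and 11.03 in ScapΔ/Δ lungs. All neighbouring groups overlapped, and C19, C20 and KO22 of the Insig line were the 3 highest arrays. The difference at E18.5 was -0.28 ± 0.23 (limma adjusted p = 0.673). At PN1 it was 0.23 ± 0.23 (adjusted p = 0.483), and -0.33 without KO17 and KO18.

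Smo, the seven-pass membrane protein that PTCH1 silences, was the steadiest of the 7, with a range over all arrays of 0.47, from 10.07 in C14 to 10.53 in KO22. The ranges of the other 6 genes were 1.22 to 1.57. Scap controls gave 10.33, 10.31 and 10.39 at E18.5 and 10.24, 10.07 and 10.11 at PN1, with no overlap. ScapΔ/Δ lungs gave 10.40, 10.23 and 10.29 at E18.5 and 10.10, 10.24 and 10.35 at PN1, with overlap. The difference across birth in controls was -0.21 ± 0.09 and did not pass (limma adjusted p = 0.323). Differences with deletion were -0.04 at E18.5, 0.09 at PN1 and -0.07 in the Insig line, each with a 95% confidence interval that included 0. In the order of the 6 group means every group overlapped its neighbours.

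Gli1, a transcription factor that is itself induced by the pathway, had 9.04 and 9.0 in KO17 and KO18 and 7.88 in KO16. The PN1 controls had 8.23, 8.04 and 7.97. At E18.5 controls had 7.93, 7.92 and 7.75 and ScapΔ/Δ lungs 7.73, 7.59 and 7.63. The Insig line had 8.02, 8.09 and 7.69 in controls and 8.45, 7.73 and 7.79 in Insig1/2Δ/Δ lungs. KO17 and KO18 thus lay above all other arrays, and KO16 lay below the 3 PN1 controls. The 3 E18.5 ScapΔ/Δ lungs lay just below their controls, by 0.02 between the nearest pair. In the order of the 6 group means, from 8.64 in PN1 ScapΔ/Δ to 7.65 in E18.5 ScapΔ/Δ lungs, only that last pair of neighbours did not overlap.

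Gli1 rose from E18.5 to PN1 in ScapΔ/Δ lungs, by 0.99 ± 0.25 or 1.99-fold (limma adjusted p = 0.0186). Without KO17 and KO18 the difference was 0.23 (adjusted p = 0.282). In controls it was 0.21 ± 0.25 (adjusted p = 0.897), with PN1 above E18.5 in 3 of 3 arrays. The deletion difference was -0.22 ± 0.25 at E18.5 (adjusted p = 0.758) and 0.56 ± 0.25 at PN1 (adjusted p = 0.15). The test of the difference between these ages gave 0.78 ± 0.35 (adjusted p = 0.265). With KO16 alone at PN1 these were -0.20 for the deletion and 0.02 for the difference between ages.

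Gli2, the main activator of the family, was lowest in ScapΔ/Δ lungs at E18.5, with 7.79, 7.70 and 7.32 against 7.96, 8.01 and 7.96 in controls. At PN1 the ScapΔ/Δ values were 7.80, 8.28 and 8.53 and the control values 8.19, 7.87 and 8.18. In the Insig line controls gave 8.40, 8.33 and 8.06 and Insig1/2Δ/Δ lungs 8.28, 8.08 and 7.99. At E18.5 the groups did not overlap, and at the other stages they did. From the highest group mean, 8.26 in Insig controls, to the lowest, 7.60 in E18.5 ScapΔ/Δ lungs, no other neighbours were apart. The E18.5 difference was -0.37 ± 0.18 (limma adjusted p = 0.553), the lowest of the 7 genes in that comparison. Gli2 rose from E18.5 to PN1 in ScapΔ/Δ lungs, by 0.60 ± 0.18 or 1.52-fold (adjusted p = 0.0304), and the difference was 0.20 without KO17 and KO18 (adjusted p = 0.569). In controls it was 0.10 ± 0.18 (adjusted p = 0.968).

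Gli3, which serves mainly as the repressor of the family, followed Ptch1. It had 9.56, 9.46 and 8.99 in Insig controls and 9.47, 8.72 and 8.74 in Insig1/2Δ/Δ lungs. At E18.5 it had 8.71, 8.79 and 8.69 in controls and 8.71, 8.38 and 8.27 in ScapΔ/Δ lungs. At PN1 it had 8.83, 8.23 and 8.51 in controls and 8.36, 8.89 and 8.94 in ScapΔ/Δ lungs. Between deleted and control lungs of the same line and stage the ranges overlapped, and C19, KO22 and C20 were again the highest arrays. Differences with deletion were -0.27 ± 0.19 at E18.5, 0.21 ± 0.19 at PN1 and -0.36 ± 0.25 in the Insig line (limma adjusted p = 0.627, 0.431 and 0.758). The PN1 difference was -0.16 without KO17 and KO18.

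Hhip, which binds Hedgehog ligands at the cell surface, had the lowest difference of the 7 genes across birth. Before birth it was nearly level, with 11.41, 11.55 and 11.44 in E18.5 controls and 11.51, 11.54 and 11.56 in Insig controls. In PN1 controls it had 10.95, 9.99 and 10.38. ScapΔ/Δ lungs had 11.54, 11.17 and 11.11 at E18.5 and 10.32, 10.83 and 11.07 at PN1. All PN1 arrays of a genotype lay below all its E18.5 arrays, by 0.46 between the nearest pair of controls and by 0.04 between the nearest pair of ScapΔ/Δ arrays.

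In control lungs the difference of Hhip from E18.5 to PN1 was -1.03 ± 0.24 (95% confidence interval -1.56 to -0.50), a ratio of 0.49. It fell just short of the threshold (limma adjusted p = 0.0529; exact permutation p = 0.1). Fitted with only the arrays of the 2 groups, a fit added after seeing the data, it passed (adjusted p = 0.0248). In that fit 2552 of 22962 probe sets passed, against 589 of 22800 in the main fit. Hhip did not pass without the filter, after quantile normalization or median centring, with an intensity trend in the spread, or in the unmoderated test. Without C13, the highest PN1 control, the difference was -1.28, and without C14, the lowest, -0.81. In ScapΔ/Δ lungs the difference was -0.53 ± 0.24 (adjusted p = 0.0947). The test of the difference between genotypes gave 0.50 ± 0.34 (adjusted p = 0.333). With KO16 alone at PN1 they were -0.95 and 0.08. Ordered by group mean, Hhip was apart between E18.5 controls (11.47) and Insig1/2Δ/Δ lungs (11.31) and between E18.5 (11.27) and PN1 (10.74) ScapΔ/Δ lungs. In the first of these the nearest arrays, C7 and KO22, both rounded to 11.41, and the groups differ in line and stage. In the Insig line Hhip had 11.41, 11.39 and 11.12 in Insig1/2Δ/Δ lungs, all below their controls, a difference of -0.23 ± 0.09 (adjusted p = 0.758).

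**Figure D2:**
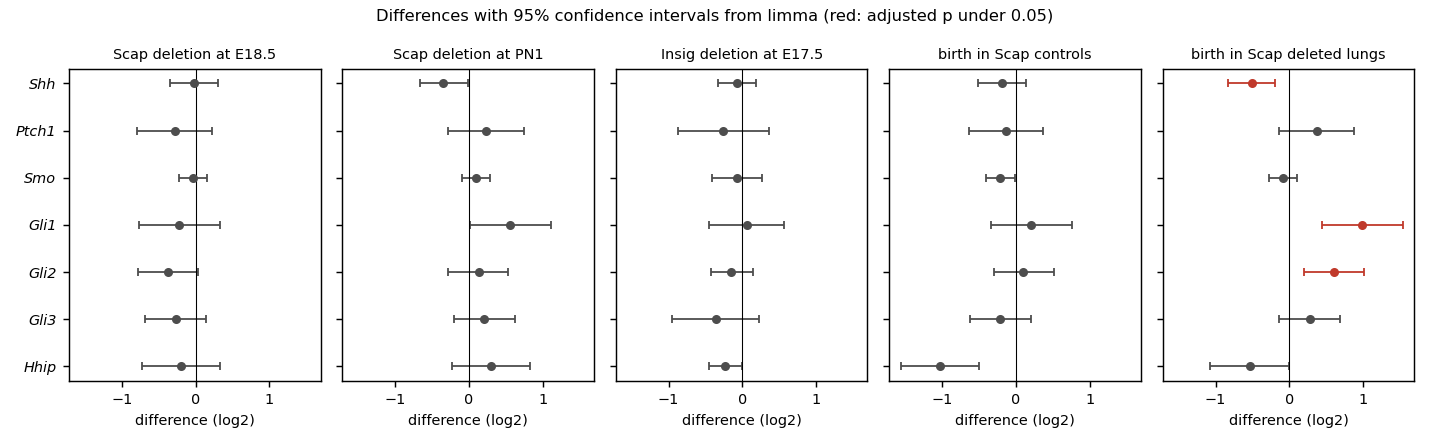
Log2 differences of the 7 genes (points) with 95% confidence intervals from limma (whiskers) in 5 comparisons: deleted minus control in the first 3 panels and PN1 minus E18.5 in the last 2. Red marks the 3 with an adjusted p under 0.05: Shh, Gli1 and Gli2 in ScapΔ/Δ lungs across birth. Hhip in controls has the lowest difference, at -1.03.

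Read over the set, deletion of Scap at E18.5 left all 7 genes with differences below 0, from -0.37 (Gli2) to -0.02 (Shh). Their median was -0.22 against -0.04 over all 22800 probe sets tested, of which 41.7% were above 0. After median centring of the arrays Shh was at 0.02 and 6 of the 7 were below 0. None passed limma, where 0.00877% of probe sets did, and none had an unadjusted p under 0.05, where 9.24% did. Gli1 and Gli2 did not overlap between groups and were lower, in a comparison where 21% of probe sets were lower without overlap and 14.5% higher. Among the ScapΔ/Δ lungs KO10 lay at control level, with a mean over the 7 genes of 9.58 against 9.57 to 9.60 in controls, while KO11 had 9.33 and KO12 9.23.

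At PN1 none of the 7 passed, where 0.00877% of probe sets did. Shh and Gli1 had an unadjusted p under 0.05, as did 32.3% of all probe sets. Differences were above 0 for 6 of 7, with a median of 0.21 against -0.06 over all probe sets, of which 42.1% were above 0. Only Shh was free of overlap, in the lower direction, where 11% of probe sets were lower and 5.59% higher without overlap. Without KO17 and KO18 all 7 differences were below 0, with a median of -0.16 against -0.02. Without KO16 instead, Shh, Ptch1 and Gli1 passed, among 14010 probe sets that did. The sign of the set at PN1 therefore differed between the arrays of 1 group.

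In the Insig line at E17.5 no gene passed, and the share of all probe sets that passed was 0%. Differences were below 0 for 6 of 7, with a median of -0.15 against 0.01 over all probe sets, of which 54.4% were above 0. Hhip was the only one free of overlap, where 4.22% of probe sets were lower and 5.83% higher without overlap. Within this line the arrays fell into 2 levels that crossed genotype: the mean over the 7 genes was 9.97 in C19, 9.96 in C20 and 10.02 in KO22, and 9.66 in C21, 9.59 in KO23 and 9.53 in KO24. The split was not particular to these genes. Over all probe sets C19, C20 and KO22 correlated with one another at 0.996 to 0.9967, and C21, KO23 and KO24 at 0.9932 to 0.9955. Between these 2 sets r was 0.984 to 0.9914. The heart muscle markers of C21 named above stood beside this, and their part in it was not tested.

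Across birth in control lungs none of the 7 passed, where 2.58% of probe sets did. Hhip and Smo had an unadjusted p under 0.05, as did 13.5% of all probe sets. Shh, Smo and Hhip lay lower without overlap and Gli1 higher, where 16.5% of probe sets lay lower and 17.6% higher. In ScapΔ/Δ lungs across birth Gli1 and Gli2 rose, where 17.5% of probe sets rose, and Shh fell, where 20.1% fell. Without overlap were Gli1 and Gli2 (higher, 16.7% of all) and Shh and Hhip (lower, 17.3% of all). None of the 7 passed in that comparison with KO16 alone at PN1, without KO17, KO18 or KO11 alone, or when only the 6 arrays of the 2 groups were fitted. Shh alone passed without KO12. Differences between the ages in the effect of Scap deletion had a median of 0.50 against -0.03, or 0.02 against 0.01 with KO16 alone at PN1, and none of the 7 passed, with 0% of all probe sets passing. The comparisons of the Scap line share arrays, so that their values are not independent of one another.

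**Figure D3:**
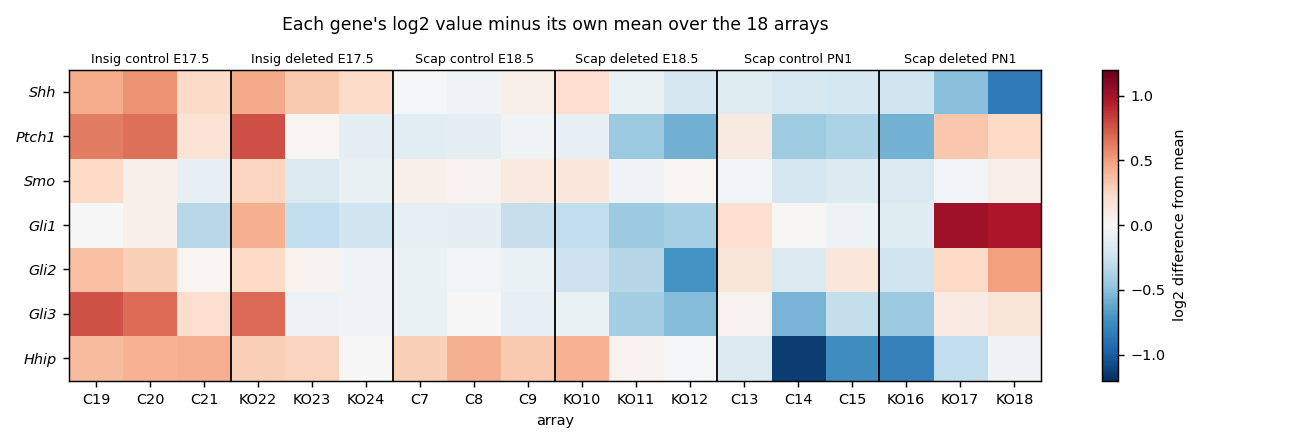
Colour shows the log2 value of each gene (rows) in each array (columns, by group) minus the mean of that gene over the 18 arrays. The Insig arrays C19, C20 and KO22 are high in Ptch1 and Gli3, KO17 and KO18 are high in Gli1 and low in Shh, and Hhip is low in C14, C15 and KO16.

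The genes that receive the signal varied together from lung to lung. With group means removed, Ptch1 correlated with Gli3 at r = 0.95, with Gli1 at 0.90, with Smo at 0.85 and with Gli2 at 0.82 over the 18 arrays. For Shh the within-group r with the other 6 genes lay between -0.22 and 0.17 over the 18 arrays, and between 0.42 (Hhip) and 0.80 (Ptch1) once the PN1 ScapΔ/Δ group was left out. Over all arrays, with groups kept, Ptch1 and Gli3 reached r = 0.97, and Shh and Gli1 -0.51. Over the 16 arrays other than KO17 and KO18, Shh reached 0.88 with Ptch1, 0.87 with Gli3, 0.69 with Hhip, 0.60 with Gli2, 0.56 with Smo and 0.24 with Gli1. These are descriptions, since arrays share groups, stage and the processing of the table. Such r values were not particular to the pathway: over those 16 arrays Ptch1 reached 0.98 with Gli3 and also with Ylpm1, a gene outside the lists. Collagen genes showed a similar order of arrays in some groups. Col1a1, a fibroblast marker, had 11.16 in C13 against 10.42 and 10.78 in the other PN1 controls, 11.53 in both KO17 and KO18 against 10.76 in KO16, and 11.51, 11.50 and 11.52 in C19, C20 and KO22. In C21, however, it had 11.38, close to those 3. The mean of all 8 fibroblast markers ran another way, at 10.49 in KO17 and 10.51 in KO18, within the PN1 control range of 10.48 to 10.81. The part of mesenchymal cell content in the receiving genes was not tested.

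**Figure D4:**
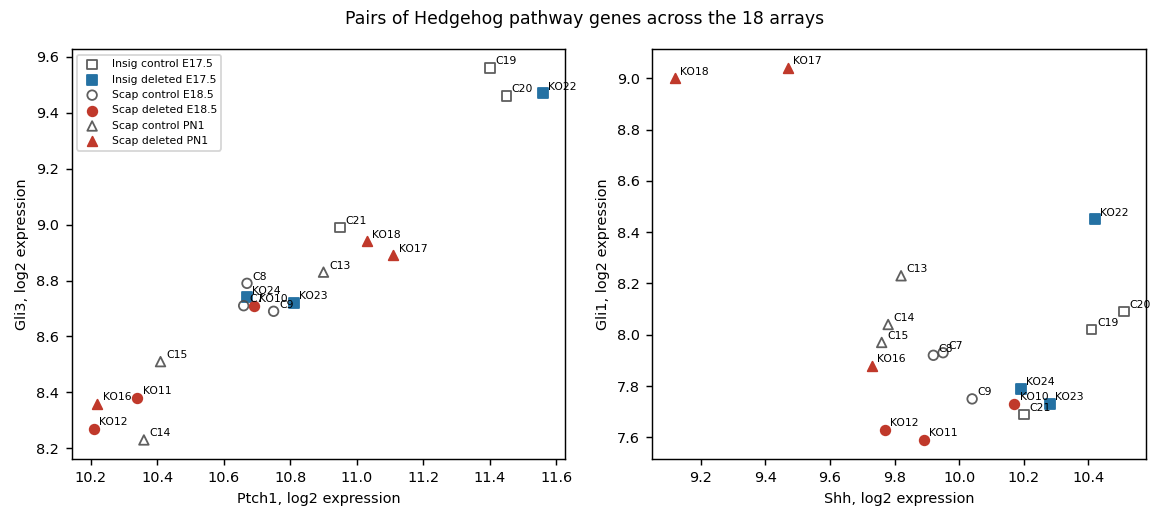
Each point is 1 array, placed by its log2 expression of Ptch1 and Gli3 (left) and of Shh and Gli1 (right), with open symbols for controls and filled ones for deleted lungs. Ptch1 and Gli3 lie along a line (r = 0.97 over 18 arrays), whereas Shh and Gli1 do not, and KO17 and KO18 sit alone at the upper left of the right panel.

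The probe sets whose pattern was most like each gene were taken from 16465 with 1 symbol, by Pearson r over the 16 arrays other than KO17 and KO18. For Shh they were Dcbld2 (0.96, and 0.76 over all 18 arrays) and Cdh8 (0.96 and 0.83). For Ptch1 they were Ylpm1 (0.98 and 0.95) and Trps1 (0.98 and 0.95). For Gli3 they were Trps1 (0.99 and 0.92) and Dnmt1 (0.99 and 0.96), so that Trps1 was named for both Ptch1 and Gli3. Hhip was followed by Pik3r1 and Zhx3 (0.98 and 0.97 each). Gli1 was followed by Col27a1 (0.90 and 0.97) and Dcpp1 (0.89 and 0.91), and Smo by Klhl20 (0.88 and 0.84) and Dnah8 (0.87 and 0.77). For Gli2 the values were 0.96 and 0.79 with Tcf12 and 0.95 and 0.27 with Ipo9, the latter lost when KO17 and KO18 were included.

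Other genes of the pathway were followed in 4 lists. Of 7 genes for other ligands and their release, Dhh, a ligand of Schwann and endothelial cells, rose across birth in ScapΔ/Δ lungs by 0.58 ± 0.18 (limma adjusted p = 0.0304), where 17.5% of probe sets rose, and by 1.02 with KO16 alone at PN1. Its values were 7.25, 7.24 and 7.21 at E18.5 and 8.25, 7.40 and 7.78 at PN1. In controls they were 7.33, 7.30 and 7.31 at E18.5 and 7.75, 8.04 and 8.10 at PN1, a difference of 0.65 ± 0.18 (adjusted p = 0.0889). Dhh was thus higher in every PN1 array than in every E18.5 array of its genotype, as were 17.6% of probe sets in controls and 16.7% in ScapΔ/Δ lungs. No other gene of the list passed in any comparison. At E18.5 all 7 had differences below 0 with Scap deletion (median -0.17 against -0.04 over all probe sets, of which 41.7% were above 0). Lower without overlap were 5 of the 7, where 21% of probe sets were. Among these 5 were Scube3, Scube1 and Hhat, the acyltransferase of the ligands, at -0.18, -0.17 and -0.17. At PN1 Disp1, which releases cholesterol-bearing ligand, differed without overlap by 0.07 (0.02 with KO16 alone), where 5.59% of probe sets were higher. In the Insig line Scube1, a secreted carrier of the ligand, differed without overlap by -0.11, where 4.22% of probe sets were lower.

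Of 5 coreceptor genes tested, Lrp2, an endocytic receptor that binds SHH, rose across birth in ScapΔ/Δ lungs by 0.89 ± 0.15 (limma adjusted p = 0.0053), beside the same 17.5% of probe sets, and no other passed in any comparison. It had 7.59, 7.60 and 7.59 at E18.5 and 8.18, 8.75 and 8.51 at PN1, with no overlap. The difference was 0.59 with KO16 alone at PN1. In controls Lrp2 differed by 0.59 (adjusted p = 0.0774), and Gpc6, a glypican, by -0.44 (adjusted p = 0.231), both without overlap. Of all probe sets 17.6% were higher and 16.5% lower there without overlap. With Scap deletion at PN1, Gas1, which helps SHH bind PTCH1, differed without overlap by -0.25 (-0.15 with KO16 alone), where 11% of probe sets were lower.

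Of 19 genes for signal relay and the cilium, 1 rose and 2 fell across birth in ScapΔ/Δ lungs, where 17.5% of probe sets rose and 20.1% fell. Kif7, a ciliary kinesin that organises GLI proteins, rose by 0.38 ± 0.11 (limma adjusted p = 0.0297). Ift88, needed for transport within cilia, fell by 0.79 ± 0.14 (adjusted p = 0.00613), and Efcab7, which anchors the EVC complex at the ciliary base, fell by 0.67 ± 0.15 (adjusted p = 0.0122). With KO16 alone at PN1 these were 0.21, -0.42 and -0.37. In KO17 and KO18 Efcab7 had 6.67 and 6.78, below the 35th percentile of those arrays (6.84 and 6.87). None of the 19 passed in the other comparisons. In controls across birth Ift88, Ift172 and Evc differed without overlap by -0.42, -0.41 and -0.20. They were 3 of 19, where 16.5% of all probe sets were lower without overlap. With Scap deletion at E18.5, 1 of the 19 was higher and 6 were lower without overlap, where 14.5% and 21% of probe sets were. Among these Efcab7 differed by 0.41, Stk36 by -0.22 and Kif7 by -0.22. At PN1, 4 of the 19 were lower without overlap, where 11% of probe sets were. Of these Stk36 differed by -0.43, Sufu, an inhibitor of the GLI proteins, by -0.37, and Spop, which marks GLI proteins for breakdown, by -0.22. With KO16 alone Stk36, Sufu and Spop differed by -0.21, -0.32 and -0.11. In the Insig line Gsk3b, Kif3a and Prkacb differed without overlap by -0.29, -0.25 and -0.22. They were the only 3 of the 19, where 4.22% of all probe sets were lower without overlap.

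Of 12 target and effector genes of the mesenchyme, 4 rose and 2 fell across birth in ScapΔ/Δ lungs, beside those same shares of 17.5% and 20.1%. Ccnd2, a cyclin of the early cell cycle, rose by 0.70 ± 0.10 in ScapΔ/Δ lungs (limma adjusted p = 0.00286) and by 0.53 ± 0.10 in controls (adjusted p = 0.0262). It was the only gene of the 4 lists that passed in both. Myocd, a coactivator of smooth muscle genes, rose by 0.58, Ccnd1 by 0.36 and Foxf1, a transcription factor of lung mesenchyme, by 0.23. Bmp4 fell by 0.57 and Snai1 by 0.53. With KO16 alone at PN1, Ccnd2 was at 0.63, Ccnd1 at 0.47, Foxf1 at 0.31, Myocd at 0.09, Bmp4 at -0.06 and Snai1 at -0.14. In Bmp4, a growth factor ligand, KO17 and KO18 had 11.05 and 10.76 and KO16 had 11.66, against 11.78, 11.71 and 11.68 in ScapΔ/Δ lungs at E18.5.

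After median centring of the arrays, Lrp2, Ift88, Efcab7, Ccnd2, Bmp4 and Snai1 still passed across birth in ScapΔ/Δ lungs, while Dhh, Kif7, Myocd, Ccnd1 and Foxf1 did not. Gas1, Btrc, Kif3a, Ift172 and Foxf2 passed in addition, in the lower direction. With this centring 6655 of 22800 probe sets passed lower and 1994 higher, and the median over all probe sets was -0.20. With only the 6 arrays of the 2 groups, none of the 4 lists had a gene that passed across birth in ScapΔ/Δ lungs.

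With Scap deletion at E18.5 all 12 target genes had differences below 0, with a median of -0.27 against -0.04. Of all probe sets 41.7% were above 0. Of the 12 genes 8 were lower without overlap, where 21% of probe sets were. The lowest of these were Myocd, Foxf2 and Ccnd1, at -0.39, -0.36 and -0.34, and none passed. All 12 stayed below 0 after median centring. At PN1, 4 of the 12 were lower without overlap, where 11% of probe sets were, and none passed. Bmp4, Snai1 and Foxf2 were lower by 0.71, 0.66 and 0.57. With KO16 alone these differences were -0.20, -0.28 and -0.26. In the Insig line Myocd differed without overlap by -0.41 and Snai1 by 0.31, where 4.22% of probe sets were lower and 5.83% higher.

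Markers of the cells that could carry these genes moved across birth as well. Of 7 smooth muscle markers, 5 rose in controls and 7 in ScapΔ/Δ lungs, where 2.58% of probe sets passed in either direction in controls and 17.5% rose in ScapΔ/Δ lungs. Cnn1 rose by 2.13 ± 0.15 in controls and 1.94 ± 0.15 in ScapΔ/Δ lungs (limma adjusted p = 0.000201 and 0.000258). In ScapΔ/Δ lungs the 7 differences ran from 0.58 to 1.94, and with KO16 alone at PN1 from 0.09 (Myocd) to 2.10 (Cnn1). The mean over the 7 markers lay between 9.72 and 9.92 in E18.5 controls and between 10.68 and 10.81 in PN1 controls. In ScapΔ/Δ lungs it lay between 9.61 and 9.73 at E18.5 and between 10.72 and 10.81 at PN1. Of 8 fibroblast markers, 1 fell in controls (Pdgfra, a difference of -0.86), where 1.39% of probe sets fell. In ScapΔ/Δ lungs 4 fell, where 20.1% of probe sets did. Their differences were -0.67 for Pdgfra, -0.72 for Tcf21, -0.86 for Dcn and -1.80 for Lum. With KO16 alone at PN1 the same 4 were at -0.64, -0.44, -0.60 and -1.52. None of the 8 rose. Differences of 3 markers were above 0 in ScapΔ/Δ lungs and did not pass: 0.70 for Col1a1, 0.53 for Col1a2 and 0.20 for Col3a1. With KO16 alone at PN1 these 3 were at 0.18, 0.14 and -0.14. In controls the 7 Hedgehog genes had a median difference of -0.19 over the same interval. The part of these cell markers in the Hedgehog values was not tested.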

How the data were processed

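RNA of whole lung had been hybridized to Affymetrix Mouse Gene 1.0 ST arrays, and 18 of them, in 6 groups of 3 by their labels, were used. The deposited table gives log2 expression for 35556 probe sets, made by the authors, who name GeneSpring GX for later steps; how arrays were summarized and normalized is not given in the sources used here. Values lay between 3.09 and 14.05 and array medians between 7.42 and 7.70. KO17 and KO18 had the highest medians, 7.67 and 7.70, and the other arrays 7.42 to 7.50. The 35th percentile was 6.84 in KO17 and 6.87 in KO18, against 6.43 to 6.56 in the other arrays. In the platform annotation 21789 probe sets carried 1 symbol, 1621 several and 12146 none, and only the first kind was named. The number of arrays limits the precision.

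A probe set was tested if it reached the 35th percentile in 66% or more of the arrays being fitted, which left 22800 for the 12 Scap arrays (4 group means, 1 fit) and 22775 for the 6 Insig arrays. The model was limma 3.58.1 under R 4.3.3, two-sided, with Benjamini-Hochberg adjustment over all tested probe sets; every adjusted p in the text comes from it. An exact permutation of 3 against 3 reaches 0.1 at best. The fit was tested on simulated data. The 7 genes, the lists and the tests were chosen with earlier results of these data known.

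All 7 genes are named in every comparison. From each other list up to 4 genes that passed per direction are named, by size, or up to 3 without overlap where none passed, and for each of the 7 genes the 2 most similar probe sets. Col1a1 was chosen after its values were seen. Prkaca and Adrbk1 were not analysed here. Alternatives were no filter, a stricter filter (50th percentile), quantile-normalized values, centring on array medians, all 18 arrays together, an intensity trend in the spread, an unmoderated test of 2 groups, and omission of each array or of KO17 and KO18. A fit of only the groups compared was added after seeing the data. Scap arrays of E17.5 were not analysed here. Tables came from pandas 2.3.3 and numpy 2.4.6 in Python 3.11.15, figures from matplotlib 3.10.9.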

Additional observations from a re-analysis of the deposited data

Results flagged for a closer look

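Snai1, a transcription factor of mesenchymal cells on the list of targets, had differences of opposite sign in the 2 lines. It was found by a search of the 7 genes and the lists, cell markers left out, for groups without overlap in opposite directions. With Scap deletion every deleted lung lay below every control, with a difference of -0.29 at E18.5 and -0.66 at PN1. The PN1 difference was -0.28 with KO16 alone, KO17 and KO18 left out. Of all probe sets 21% lay lower without overlap at E18.5 and 11% at PN1. With Insig deletion at E17.5 every deleted lung lay above every control, with a difference of 0.31, where 5.83% of probe sets were higher without overlap. The difference between the lines was not tested, and none of the 3 differences passed limma (adjusted p = 0.553, 0.0885 and 0.758).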

How the results depend on the processing

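No paired analysis was made because the labels do not name the litter of a lung. None of the 7 genes passed for Scap deletion at E18.5 or Insig deletion at E17.5 under any alternative. Across birth in controls 1 gene (Hhip) passed with the filter at the 50th percentile, with all 18 arrays in 1 fit (adjusted p = 0.0132) and with only the groups compared. In these fits 469 of 17401, 861 of 22717 and 2552 of 22962 probe sets passed. Across birth in ScapΔ/Δ lungs 5 passed after median centring (Smo and Hhip beside Shh, Gli1 and Gli2), 4 with all 18 arrays, and 0 with the unmoderated test, with only the groups compared or without KO17 and KO18, which leaves KO16 alone in its group. Leaving out single arrays, counts ranged from 0 to 3 at PN1, 0 to 1 across birth in controls (1 without C13, KO16 or KO18), 0 to 5 across birth in ScapΔ/Δ lungs (0 without KO11, KO17 or KO18, 1 without KO12, 2 without KO10) and 0 to 5 for the difference between ages. The highest counts of these, apart from the controls, came without KO16, where 13219 to 16316 probe sets passed in all.

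Signs turned as follows. Median centring moved Shh at E18.5 to 0.02, Smo and Gli2 at PN1 to -0.05 and -0.01, and Smo between ages to -0.04. It also moved the median of all probe sets at PN1 from -0.06 to -0.19, and across birth in ScapΔ/Δ lungs from -0.03 to -0.20, with 1994 probe sets higher and 6655 lower there against 3995 and 4586. Quantile normalization moved Smo across birth in ScapΔ/Δ lungs to 0.06. Without KO17 and KO18 the PN1 differences were -0.33 (Ptch1), -0.04 (Smo), -0.20 (Gli1), -0.28 (Gli2), -0.16 (Gli3) and -0.12 (Hhip), those across birth -0.19 (Ptch1) and -0.10 (Gli3), and that between ages -0.05 (Ptch1). With single arrays left out, ranges that crossed 0 were -0.14 to 0.06 (Shh, E18.5), -0.04 to 0.33 (Gli2, PN1), -0.20 to 0.02 (Smo, Insig) and -0.17 to 0.19 (Gli1, Insig). Causes were not tested. Over all probe sets the count that passed at PN1 was 2, with 18 without the filter, 2995 with all 18 arrays and 14010 without KO16. Across birth in controls it was 589, with 2552 for only the groups compared and 2718 without KO16. Across birth in ScapΔ/Δ lungs it was 8581, with 64 for only the groups compared, 5 unmoderated and 1414 without KO17 and KO18.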
